A study of Homo sapiens with 8 samples.

Results

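The genes described here encode 9 transcription factors and cofactors of blood stem cells and of the red cell lineage: GATA1, GATA2, TAL1, LMO2, LYL1, KLF1, NFE2, MEIS1 and PBX3. For each gene, every peak of 4 deposited lists of open chromatin that overlapped the gene body or the 100 kb on either side of it (GENCODE annotation, build hg38) was taken. That gave 438 of 222491 peaks with DMSO, 429 of 222110 with ATRA, 382 of 189896 with Corin and 402 of 197548 with the combination. Merged over the lists, these formed 275 of 161291 union regions, and no region belonged to more than 1 gene. The lists come from ATAC-seq, which cuts and tags accessible DNA with a transposase, in U-937, an established human monocytic leukaemia line for which the labels name no genetic change in any group. All groups were treated for 24 h, with 0.1 µM given in the labels for each agent: DMSO (the vehicle, the group labelled Ctrl), ATRA (all-trans retinoic acid, which activates the receptors RARA, RARB and RARG), Corin (an inhibitor of the demethylase and deacetylase of the CoREST corepressor), or ATRA and Corin together, called the combination. Each group had 2 samples, but the files used here hold 1 list per group made from both, so replicate spread is unknown and no difference between groups was tested. Every treatment is compared with the same DMSO list, so the comparisons are not independent of each other.

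GATA1 and GATA2 are zinc finger proteins that bind GATA sequences. TAL1 and LYL1 are closely related basic helix-loop-helix proteins that bind E-boxes with E proteins. LMO2 is a LIM-domain adaptor that joins them to a GATA factor in 1 complex, which also holds LDB1. KLF1 and NFE2 act later, on globin and other genes of red cells and, for NFE2, of platelets, whereas MEIS1 and PBX3 are homeodomain partners of HOX proteins that are active in stem cells and in many acute leukaemias. The lysine demethylase of the CoREST complex, LSD1, is recruited by GFI1 and GFI1B and is known for keeping stem and erythroid genes repressed in myeloid cells.

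Strength is given as the authors' column 7, the fold of the strongest peak of a region over its local background. Because lists differ in depth and background, and the number of reads behind them is unknown, ratios between lists were centred, that is, divided by the median ratio of all regions of similar strength called in both lists. A region called in both lists is named raised when its centred ratio was at least 1.5 and lowered when it was at most 1/1.5. Gained means called with the treatment and not with DMSO, and lost means the reverse. The pileup at the summit, the number of fragments or reads stacked there, was recovered from the deposited fold and p and was whole, within 0.05, for 207 of 207, 194 of 194, 192 of 192 and 177 of 177 of these regions with DMSO, ATRA, Corin and the combination. It is given beside the fold because a fold can move through its background alone. Intervals of ratios cover counting error of the 2 pileups only, with the background taken as known, and intervals of shares cover counting error over regions only.

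Marker genes were checked at their starts and did not separate all lineages. Fewer erythroid than monocytic and granulocytic starts were called, while starts of T and NK cell, B cell and epithelial genes were often called. The share of all gene starts called in each list was not computed. A peak lay within 1 kb of a start of 8 of 11 monocytic and granulocytic marker genes with DMSO, ATRA and the combination and of 9 with Corin, with CD33 between 15.5 and 20.4 and ITGAM between 19.9 and 23.9 in column 7. CD14 and MPO had none in any list. Of 8 erythroid markers 4 had a peak with DMSO, 2 with ATRA, 2 with Corin and 1 with the combination, HBA1 being called in all 4 lists, at 3.16 to 4.15, and AHSP and HBB in none. Starts of other lineages were open too, at 3 of 5 T and NK cell genes and 3 of 4 B cell genes in every list, among them CD8A, while CD3D, CD3E and MS4A1 had none. Of 3 epithelial genes 3 were called with DMSO and 2 in each other list, KRT8 at 14.2 to 20.4 and CDH1 at 9.35 to 14.5.

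Chromatin near the 9 genes was mostly of the kind that stayed open throughout. Of the 275 regions, 143 were called in all 4 lists (52.0%, 95% Wilson interval 46.1 to 57.8), against 41.1% of all regions. Promoters, the regions within 1 kb of a start of any gene, make up 91 of the 275 but 33307 of all 161291, and they are called more evenly. Split this way, the constant share was 68.1% at promoters (58.0 to 76.8, all promoters 60.1%) and 81 of 184 elsewhere (37.0 to 51.2%, all such regions 36.2%). Constant regions were most frequent near NFE2, at 30 of 39, LMO2, at 20 of 30, LYL1, at 22 of 36, and KLF1, at 25 of 42. They were fewest near GATA1, at 4 of 19, GATA2, at 9 of 34, and TAL1, at 7 of 19, with MEIS1 at 15 of 36 and PBX3 at 11 of 20 between them. Neighbours contribute to these counts: the windows hold 15 other coding genes at KLF1, 8 at GATA1 (among them HDAC6 and SUV39H1), 6 at NFE2, 5 at LYL1, 4 at TAL1, 2 at GATA2, 1 each at LMO2 and PBX3 and 0 at MEIS1. Summits hardly moved, with a median spread over the 4 lists of 19 bp in the 143 constant regions, and a spread over 100 bp in 15 of them (10.5%, all constant regions 14.0%).

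**Figure D1:**
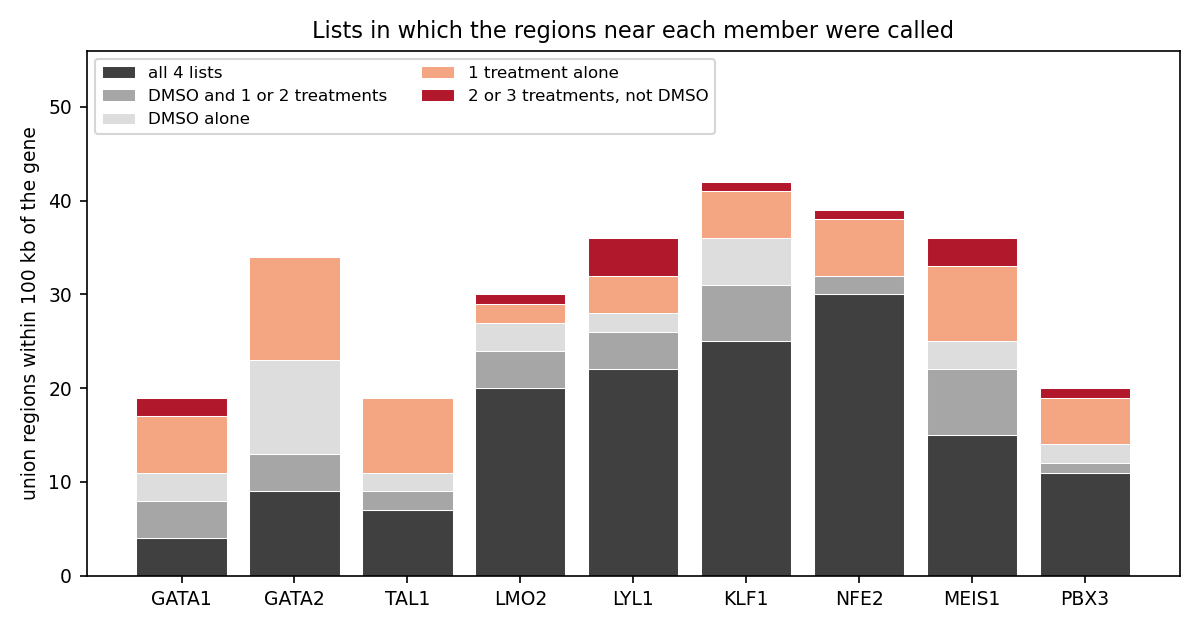
Number of union regions within 100 kb of each gene (vertical axis), stacked by the lists that called them; each bar is 1 gene. Regions called in all 4 lists make up 30 of 39 at NFE2 and 4 of 19 at GATA1, and GATA2 and TAL1 each have 0 regions shared by several treatments and absent with DMSO.

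With ATRA, 30 of 194 regions near the 9 genes were gained (15.5%, interval 11.1 to 21.2, all regions 23.3%) and 43 of 207 DMSO regions were lost (20.8%, 15.8 to 26.8, all regions 25.4%). Among 164 regions called in both lists, 20 were raised (12.2%, 8.03 to 18.1, all regions 15.6%) and 16 lowered (9.76%, 6.09 to 15.3, all regions 9.71%). No share exceeded that of all regions beyond its interval. The share gained lay below it in total, but not beyond the interval outside promoters, at 20.7% (14.4 to 28.7, all such regions 26.6%), or at promoters, at 6.85% (2.96 to 15.1, all promoters 12.4%).

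With Corin, 34 of 192 regions were gained (17.7%, 13.0 to 23.7, all regions 17.8%) and 49 of 207 lost (23.7%, 18.4 to 29.9, all regions 28.4%). Of 158 shared regions 16 were raised (10.1%, 6.33 to 15.8, all regions 7.72%) and 7 lowered (4.43%, 2.16 to 8.86, all regions 8.64%). Neither gains nor raised regions with Corin exceeded the background beyond these intervals. By the pileup in place of the fold, a setting chosen after the data were seen, Corin raised 16 regions (10.1%, all regions 11.5%) and lowered 12 (7.59%, all regions 11.1%).

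With the combination, 19 of 177 regions were gained (10.7%, 6.98 to 16.2, all regions 16.6%) and 49 of 207 lost (23.7%, 18.4 to 29.9, all regions 31.6%). Of 158 shared regions 17 were raised (10.8%, 6.83 to 16.6, all regions 9.14%) and 10 lowered (6.33%, 3.47 to 11.3, all regions 11.0%). The shares gained and lost lay below those of all regions, but the intervals include the matching share once promoters are taken apart. Outside promoters 15.9% were gained (10.2 to 24.0, all such regions 19.3%) and 28.6% lost (21.4 to 37.0, all such regions 35.4%), and at promoters 2.86% were gained (0.787 to 9.83, all promoters 8.55%) and 13 of 81 lost (9.63 to 25.5%, all promoters 19.7%). Gained regions were mostly weak peaks: their median fold was 3.41 with ATRA, 2.11 with Corin and 2.13 with the combination, against 7.29, 5.36 and 6.39 for all regions of those lists near the 9 genes, and regions lost had a median of 2.46, 2.56 and 2.52 with DMSO, against 5.26.

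**Figure D2:**
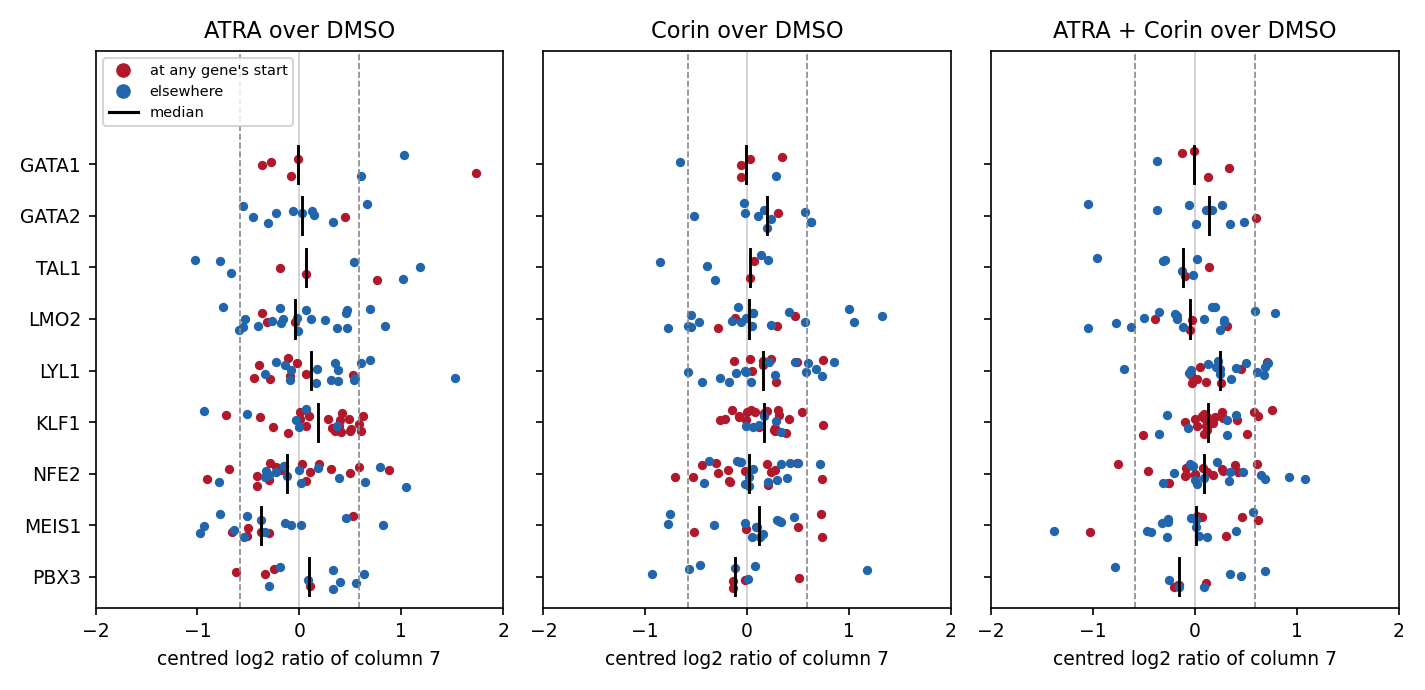
Centred log2 ratio of column 7 for each treatment over DMSO (horizontal axis) of every region called in both lists, by gene; red points lie within 1 kb of a start of any gene, blue points elsewhere, black bars are medians and dashed lines mark 1.5-fold. Most points lie between the dashed lines in every panel, and points beyond them lie on both sides for most genes.

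The start sites of the 9 genes fell into 3 kinds. LMO2, LYL1, NFE2, MEIS1 and PBX3 had a region within 1 kb of an annotated start in all 4 lists. GATA2 had one at an alternative start inside the gene and none at its outermost start. GATA1 and TAL1 had one in some lists only, weak at GATA1, and KLF1 had none in any list. The GATA1 and TAL1 regions were called with DMSO, so no treatment could gain them. No treatment added another start region at these genes, or one at KLF1.

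Over the start regions of the 9 genes the median centred log2 ratio of column 7 was -0.30 with ATRA (15 regions), 0.29 with Corin (16) and 0.30 with the combination (15), against -0.11, 0.03 and 0.01 for promoters of all genes. By the pileup the same medians were 0.10, 0.02 and 0.02, so the shift seen in the fold was not in the stacked fragments. These start regions also had a median GC content of 60.3%, against 58.0% for all promoters and 48.3% for all regions, and with classes of GC content in the centring the medians were -0.17, 0.19 and 0.27.

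**Figure D3:**
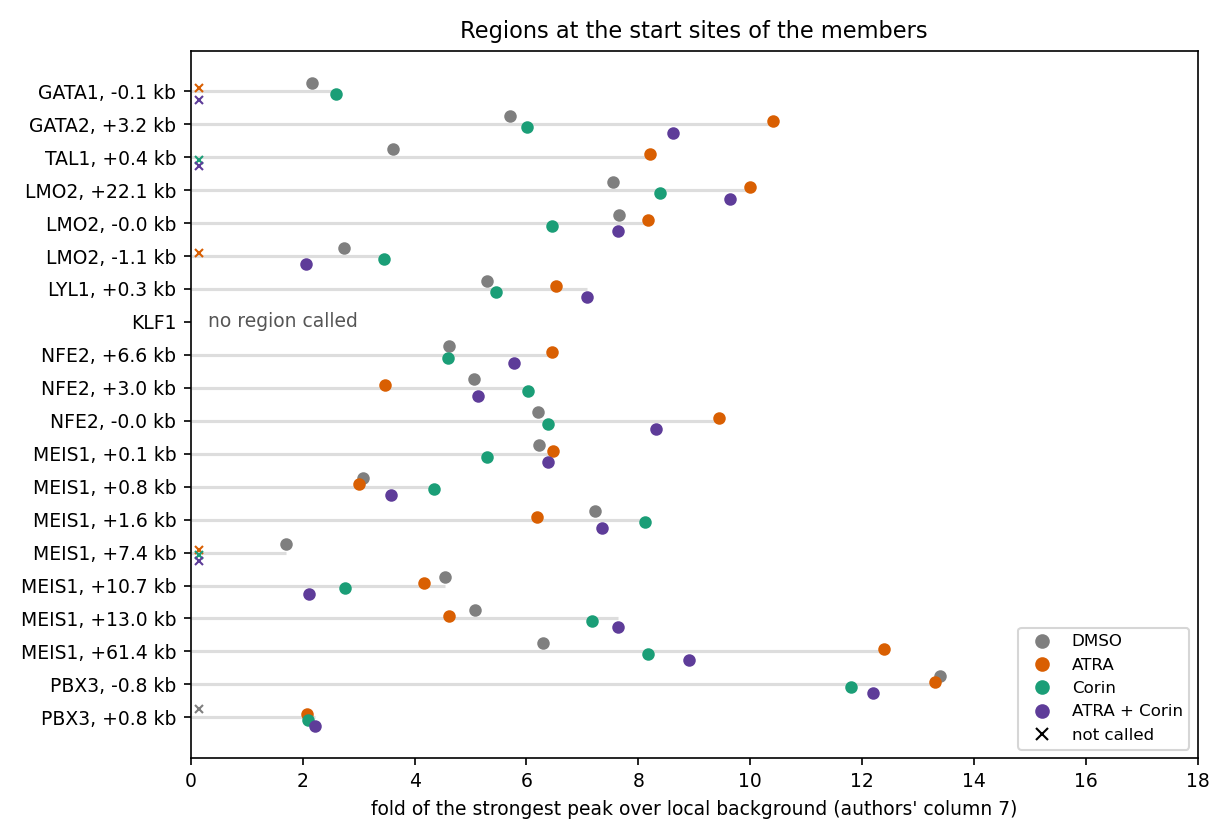
Column 7 of the regions within 1 kb of a start of each gene (horizontal axis), labelled with the distance of the summit from the outermost start in the direction of transcription; dots are the 4 lists and crosses mark lists that did not call the region. The start of GATA1 reaches 2.6 at most, that of KLF1 has no dot, and the main region of PBX3 lies between 11.8 and 13.4 in all lists.

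The start of GATA1 (ENSG00000102145, plus strand, chrX:48786540-48794311) carried a faint region at chrX:48785853-48786812. Its fold was 2.16 with DMSO and 2.6 with Corin, from pileups of 32 and 39, and it was not called with ATRA or the combination. The centred log2 ratio for Corin, 0.34, is below the 1.5-fold limit.

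Further from GATA1, an intergenic region whose summit lies 40097 bp before the start, at chrX:48746052-48746913, separated the treatments. Its fold was 5.71 with DMSO, 15.7 with ATRA, 3.04 with Corin and 4.28 with the combination. ATRA alone stands apart. Its centred ratio was 2.05 (1.58 to 2.66), Corin lowered the region to 0.632 (0.436 to 0.917), and the combination over ATRA was lowered by a log2 of -1.38 (-1.24 by the pileup). The pileups, 82, 179, 42 and 63, keep the same order. Its nearest coding start is that of GLOD5, 14834 bp away, so it is near GATA1 by the window only.

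A second region of this kind lies at an internal start of HDAC6, a cytoplasmic deacetylase gene next to GATA1, at chrX:48813467-48814028. Its fold was 5.26 with DMSO, 22.8 with ATRA and 6.43 with the combination, and Corin alone lacked it. The centred log2 ratio of ATRA over DMSO, 1.73, was the highest among the 164 shared regions near the 9 genes, and adding Corin to ATRA lowered it by -1.53. Pileups of 79, 352 and 95 show the same contrast.

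GATA2 (ENSG00000179348, minus strand, chr3:128479427-128493201) was called at an internal start, at chr3:128488836-128490536. Its fold was 5.7 with DMSO, 10.4 with ATRA, 6.01 with Corin and 8.62 with the combination, and the lists with ATRA are the higher ones. After centring, only the combination passed the limit, with a log2 ratio of 0.60 that fell short of it with a single median (0.57), with classes of GC content (0.52) and by the pileup (0.46). GATA2 had the most regions called in a single list among the 9 genes, 10 of its 34 with DMSO alone and 11 with 1 treatment alone. ATRA and Corin each lacked 12 of its 23 DMSO regions (52.2%, interval 33.0 to 70.8), and the combination lacked 13 (56.5%, 36.8 to 74.4), against 25.4%, 28.4% and 31.6% of all regions with ATRA, Corin and the combination. The 10 regions called with DMSO alone are part of each of these counts, so the 3 comparisons overlap largely. Only 3 of the 34 regions were promoters, and outside promoters the shares of all regions were 28.0%, 31.8% and 35.4%, nearer the lower limits. Near GATA1, of 11 DMSO regions ATRA lacked 4 (36.4%, 15.2 to 64.6), Corin 5 (45.5%, 21.3 to 72.0) and the combination 6 (54.5%, 28.0 to 78.7). These intervals include the shares of all regions.

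The strongest region of GATA2 outside starts, 30497 bp before it at chr3:128523185-128524863, stayed within the limits in fold, at 15.1, 14.9, 14.6 and 17.2 with DMSO, ATRA, Corin and the combination. Its pileup with ATRA was 441, against 993, 886 and 828 in the other lists, and the centred pileup ratio for ATRA was -1.31 on the log2 scale against -0.31 for the fold. An intron of the neighbour EEFSEC held a region at chr3:128383531-128383908 with folds of 5.69 with DMSO and 7.88 with Corin, 2.63 with the combination and no call with ATRA. Here the lists with ATRA are the low ones, and the combination had a centred ratio of 0.484 (0.342 to 0.684). Corin raised the region, at a log2 of 0.63 (0.59 by the pileup), with the lowest value under other settings at 0.50. Another region of that gene, at chr3:128387628-128388290, was called with ATRA alone, at a fold of 7.22 from a pileup of 72.

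At the far upstream edge of the GATA2 window, 97924 bp before the start, a region at chr3:128591000-128591445 had folds of 6.81 with DMSO and 6.3 with ATRA and was lost with Corin and with the combination. It had the highest −log10 p, 174, of all regions lost near the 9 genes under these treatments. Its neighbour, 136 bp away at chr3:128591582-128592574, was higher in the lists with Corin, with folds of 10.4, 11.7, 15.8 and 15.4 with DMSO, ATRA, Corin and the combination. When peaks within 150 bp are merged, the pair is 1 region that every list calls, so the loss depends on how peaks are joined.

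TAL1 (ENSG00000162367, minus strand, chr1:47216290-47232225) was called near its outermost starts only with DMSO and ATRA, at chr1:47231447-47232023. The fold was 3.61 with DMSO and 8.2 with ATRA, a centred log2 ratio of 0.76. The pileups were 81 and 82, and the backgrounds were 21.7 and 9.12, so the higher fold with ATRA came with a lower background and nearly the same pileup. By the pileup the centred log2 ratio was -0.04. The 250 bases before the RefSeq start inside this region (GRCh38.p14, chr1:47231716-47231965, minus strand) are shown because the calls bear on them, with 1 match to the RUNX sequence TGTGGTT in capitals.
TAL1 promoter: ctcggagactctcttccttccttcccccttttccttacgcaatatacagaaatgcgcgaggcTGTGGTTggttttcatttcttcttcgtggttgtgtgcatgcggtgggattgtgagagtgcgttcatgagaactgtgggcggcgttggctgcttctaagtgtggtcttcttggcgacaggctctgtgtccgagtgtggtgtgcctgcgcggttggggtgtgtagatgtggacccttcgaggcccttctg
Of all RefSeq promoters, taken as 300 bases, 4.27% hold TGTGGTT on either strand.

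The strongest region near TAL1 outside starts lies 39141 bp past its start, beyond its end and 1618 bp from the start of PDZK1IP1, at chr1:47192662-47193544. Its fold was 9.44 with DMSO, 17.5 with ATRA, 9.94 with Corin and 9.97 with the combination. ATRA is the high list, but the centred log2 ratio of 0.54 did not pass the limit and the pileups, 231, 278, 237 and 271, were close.

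LYL1 (ENSG00000104903, minus strand, chr19:13099033-13103161) had a wide region over its start in every list, at chr19:13102518-13105045. Its fold was 5.3 with DMSO, 6.53 with ATRA, 5.46 with Corin and 7.09 with the combination, with pileups between 1613 and 2488, the largest at any start of the 9 genes. No treatment moved it past the limit over DMSO. Over the last part of the gene, 3593 bp past the start, an exonic region at chr19:13099142-13099901 had folds of 2.91, 3.18, 4.48 and 4.25 with DMSO, ATRA, Corin and the combination. Both lists with Corin are the higher ones, and the centred ratio for Corin was raised, at a log2 of 0.85, but the pileup gave 0.38.

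Among the regions gained with Corin near the 9 genes, the one with the highest −log10 p lay in the LYL1 window, 40126 bp before the start and 1923 bp from the start of STX10, at chr19:13143108-13143491. Its fold was 4.76 with Corin and 2.43 with the combination, from pileups of 222 and 125, and it was called with neither DMSO nor ATRA. The strongest LYL1 region outside starts, 59866 bp before it, did not pass the limit, with folds of 8.18, 9.54, 7.36 and 8.19. A region over an exon of NFIX, 6749 bp past the LYL1 start, had folds of 2.56 with DMSO and 4.04 with ATRA and was lost with Corin and the combination. Weak regions further upstream were gained, at 1.91, 1.55 and 1.88 with ATRA, Corin and the combination beside IER2, and at 1.85 and 2.03 with Corin and the combination in STX10.

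LMO2 (ENSG00000135363, minus strand, chr11:33858576-33892076) had an intronic region raised with ATRA and an upstream region raised with Corin, each past the limit both by fold and by pileup. In an intron, 6521 bp past the start at chr11:33885209-33885901, the fold was 10.3 with DMSO, 22.6 with ATRA, 9.23 with Corin and 18.8 with the combination. The lists with ATRA are high and those without it are low and alike. The centred ratio was 1.79 (1.56 to 2.05) for ATRA and 1.73 (1.51 to 1.99) for the combination, against 0.937 (0.787 to 1.12) for Corin. Pileups of 282, 786, 229 and 767 show a wider gap, with centred log2 ratios of 1.30 for ATRA and 1.17 for the combination.

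The region before the gene lies 6099 bp from the start, at chr11:33897925-33898363. Its fold was 4.64 with DMSO, 3.44 with ATRA, 7.94 with Corin and 6.81 with the combination, so here the lists with Corin are the high ones. Corin raised it to a centred ratio of 2.0 (1.74 to 2.3), while ATRA lowered it to 0.595 (0.496 to 0.714). Added to ATRA, Corin raised it by a log2 of 1.53 (1.30 by the pileup). The combination over DMSO, at 0.59, fell below the limit with a single median (0.53) and by the pileup (0.33).

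The 300 bases around the strongest summit of both regions are shown, from hg38, plus strand, because they are the LMO2 sequences raised by 1 compound and not by the other. The capitals mark matches to a set of 11 sequences searched on both strands. They are a GATA match (AGATAA, here as TTATCT) and a PU.1 match (GAGGAAGT) in the intronic region (chr11:33885405-33885704), and an AP-1 match (TGANTCA) in the upstream one (chr11:33898025-33898324).
LMO2 intron, raised with ATRA: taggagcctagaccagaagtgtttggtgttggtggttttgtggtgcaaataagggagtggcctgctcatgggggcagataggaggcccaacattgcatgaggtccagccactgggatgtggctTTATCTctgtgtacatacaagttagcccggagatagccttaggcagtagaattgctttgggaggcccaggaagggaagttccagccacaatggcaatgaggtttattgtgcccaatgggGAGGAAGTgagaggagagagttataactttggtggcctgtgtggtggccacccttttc
LMO2 upstream, raised with Corin: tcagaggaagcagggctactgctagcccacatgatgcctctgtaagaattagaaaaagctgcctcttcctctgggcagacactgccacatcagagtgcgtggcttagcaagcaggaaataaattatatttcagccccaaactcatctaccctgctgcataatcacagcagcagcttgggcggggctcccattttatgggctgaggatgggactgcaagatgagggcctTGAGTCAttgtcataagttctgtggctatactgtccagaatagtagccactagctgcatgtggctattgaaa
Of all 161291 windows of this length, 13.1% hold AGATAA, 7.4% GAGGAAGT and 15.0% TGANTCA, and a match is a description of letters, not of bound protein.

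The stronger start regions of LMO2 changed little, while a weaker one was lost with ATRA. At the outermost start the fold was 7.65, 8.18, 6.46 and 7.64 with DMSO, ATRA, Corin and the combination, and at the internal starts 22150 bp further it was 7.55, 10.0, 8.38 and 9.64. None of the centred ratios over DMSO passed the limit at either. The weaker start region, with its summit 1137 bp before the outermost start, was called with DMSO (2.74), Corin (3.45) and the combination (2.06). It was lost with ATRA, and the combination over Corin was lowered, at a log2 of -0.74 (-1.0 by the pileup). At the far upstream edge of the window, 99217 bp before the start, a region had folds of 8.07, 7.36, 7.65 and 4.65 and pileups of 241, 91, 298 and 102. The combination lowered it to a ratio of 0.588 (0.467 to 0.741), and by the pileup ATRA passed the limit too, at a log2 of -1.56 against -0.55 by fold.

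**Figure D4:**
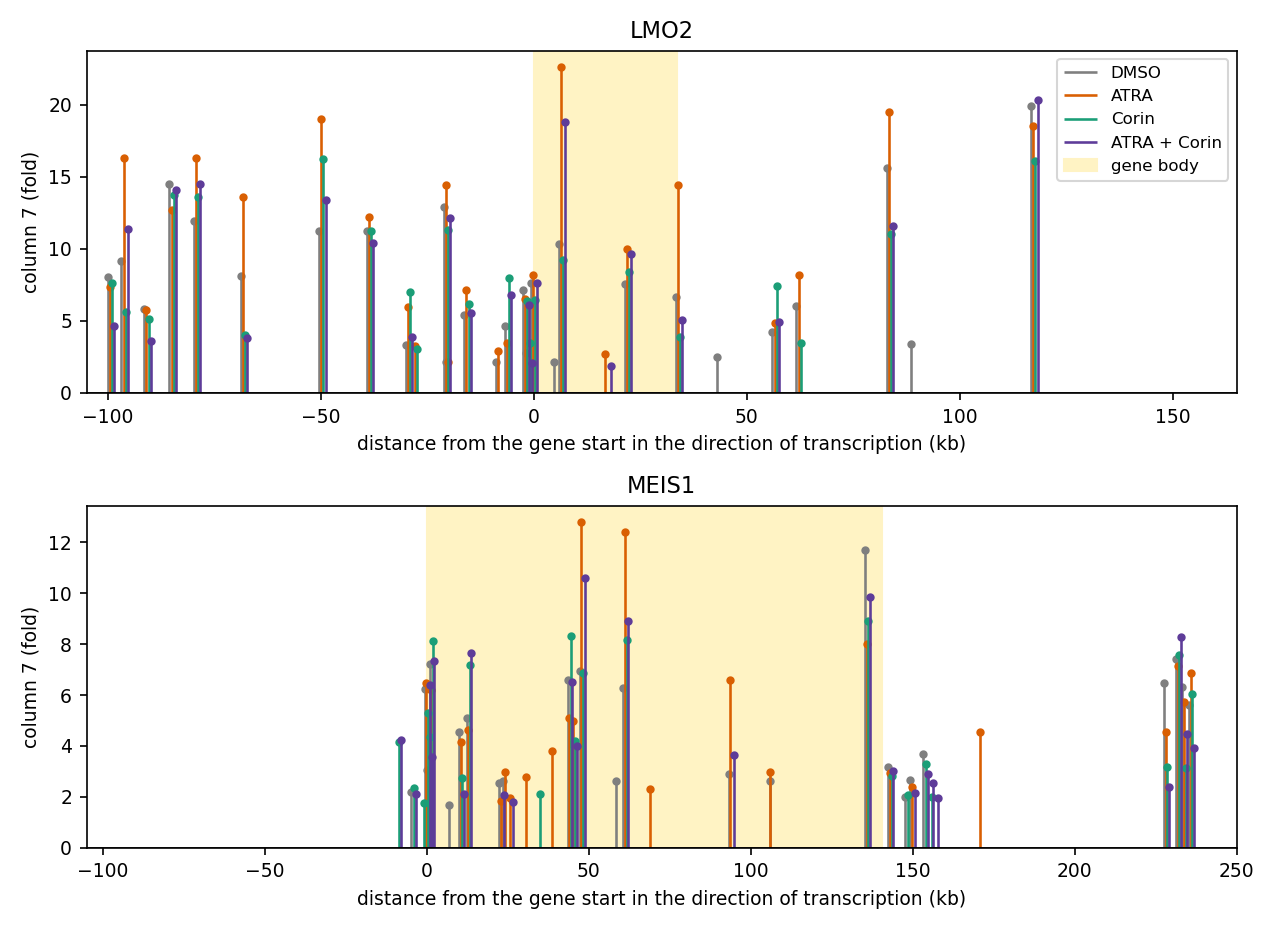
Column 7 (vertical axis) of every region near LMO2 and MEIS1 in each list, by distance of its summit from the gene start in the direction of transcription; the shaded span is the gene body, and the 4 lists of a region are drawn side by side. The LMO2 intronic region at 6521 bp reaches 22.6 with ATRA and 18.8 with the combination, and the MEIS1 regions at its first starts lie below 8.2 in every list.

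KLF1 (ENSG00000105610, minus strand, chr19:12884422-12887201), the factor of adult globin expression, had no region within 1 kb of its start in any list. The nearest one lies inside the gene, in an intron 2040 bp past the outermost start, at chr19:12884812-12885841. It was strong and even, with folds of 7.97 with DMSO, 7.52 with ATRA, 7.9 with Corin and 6.64 with the combination and pileups of 1357, 1150, 1388 and 1314. The gene was thus open within and uncalled at its start under all conditions.

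Changes elsewhere in the KLF1 window lay at its neighbours. A start region of MAST1, a kinase gene, at chr19:12833510-12834248, had folds of 4.66 with DMSO, 3.52 with ATRA, 6.67 with Corin and 6.97 with the combination. ATRA lowered it, at a log2 of -0.72 (-1.09 by the pileup). Corin raised it, at a log2 of 0.74 (0.66 by the pileup), with the lowest value under other settings at 0.55. Corin added to ATRA raised it by a log2 of 1.53 (1.73 by the pileup), the highest value of that comparison among the 156 shared regions, with that of the LMO2 upstream region. A region of GADD45GIP1, 10.1 with DMSO and 18.2 with the combination, passed the limit by fold (0.76) and not by pileup (0.37). In MAST1 a region had folds of 3.58 with DMSO, 2.1 with ATRA and 3.5 with Corin and was lost with the combination, and one near RTBDN was called with DMSO alone (3.24). A region in HOOK2, 90498 bp past the KLF1 start, had folds of 2.39, 4.37 and 1.64 with DMSO, ATRA and the combination, from nearly equal pileups of 531, 510 and 523.

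NFE2 (ENSG00000123405, minus strand, chr12:54292111-54301015), whose product forms the NF-E2 heterodimer with small MAF proteins, had 3 start regions called in all lists. At its outermost start the fold was 6.2 with DMSO, 9.45 with ATRA, 6.38 with Corin and 8.32 with the combination, and no centred ratio passed the limit. At an internal start, 3022 bp further at chr12:54297727-54298271, the fold was 5.06, 3.47, 6.02 and 5.13. ATRA is the low list there, with a centred ratio of 0.531 (0.451 to 0.627) and pileups of 401, 218, 466 and 455. It was lowered with ATRA alone and not with the combination, which over ATRA stood at a log2 of 1.04 (1.10 by the pileup). The remaining start region, 6606 bp past the outermost start, had folds of 4.62, 6.45, 4.59 and 5.78.

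The strongest region outside the NFE2 starts, in an intron of COPZ1, was even, at 10.4, 10.8, 10.2 and 9.35. Weak regions called with Corin and not with DMSO lay in COPZ1 (2.7 with Corin, 2.47 with the combination) and in GPR84-AS1 (2.59 with Corin alone).

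The region near NFE2 with the highest centred ratio for the combination, 1.08 on the log2 scale, lies 72923 bp past the start in intergenic sequence, on the far side of a CBX5 start 23374 bp away. Its fold was 5.05 with DMSO, 14.3 with ATRA, 5.25 with Corin and 11.0 with the combination. Like the LMO2 intron it is high in both lists with ATRA, with centred ratios of 2.07 (1.61 to 2.66) and 2.11 (1.65 to 2.69). Pileups were 82, 231, 114 and 310, and by them Corin also passed the limit, at a log2 of 0.81 against 0.29 by fold.

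MEIS1 (ENSG00000143995, plus strand, chr2:66433452-66573869) is the only one of the 9 with no other coding gene in its window. It had 7 regions within 1 kb of annotated starts, 6 of them called in all lists. At the outermost start the fold was 6.23 with DMSO, 6.47 with ATRA, 5.29 with Corin and 6.39 with the combination, and no treatment moved it past the limit.

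The start region 10654 bp into MEIS1, shared with the antisense transcript MEIS1-AS2 at chr2:66443722-66444728, was lowered with the combination. Its fold was 4.55 with DMSO, 4.16 with ATRA, 2.76 with Corin and 2.11 with the combination, so both lists with Corin are low. The combination had a centred ratio of 0.491 (0.424 to 0.569). Pileups were 573, 717, 221 and 254, and by them Corin alone also passed the limit, at a log2 of -1.31 against -0.52 by fold.

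The next region, 13004 bp into the gene at chr2:66445213-66447143, was higher in fold in the lists with Corin, at 5.08, 4.62, 7.17 and 7.64. The centred log2 ratio for Corin was 0.72 by fold and -0.12 by the pileup, which was 527, 670, 473 and 818. Its direction with Corin therefore depended on the measure. The region 1609 bp into the gene kept its direction but not its call, being lowered with ATRA by fold (-0.66) and not by the pileup (-0.06), nor with a single median (-0.56) or GC classes (-0.44). The small region between this one and the outermost start had folds of 3.07, 3.01, 4.34 and 3.58 and was raised with Corin by 0.73, against 0.45 by the pileup. A start region 61385 bp into the gene had folds of 6.29, 12.4, 8.18 and 8.9 and centred log2 ratios of 0.53, 0.50 and 0.46 with ATRA, Corin and the combination. ATRA passed the limit there with a single median (0.64) and by the pileup (1.29), Corin with GC classes (0.59) and the combination by the pileup (0.60). A weak one at 7439 bp was called with DMSO alone, at 1.7.

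Inside the body of MEIS1, 47942 bp past the start, the strongest region outside starts had folds of 6.95 with DMSO, 12.8 with ATRA, 6.86 with Corin and 10.6 with the combination. Both lists with ATRA are high, and its pileups were 298, 766, 220 and 506. By fold the centred log2 ratios were 0.46 for ATRA and 0.57 for the combination, under the limit. ATRA passed it by the pileup (1.18), and the combination with GC classes (0.64) and a single median (0.59) but not by the pileup (0.52). At the far end of the gene, an exonic region 135973 bp past the start had folds of 11.7, 7.99, 8.91 and 9.87, lowest with ATRA, whose centred ratio was 0.507 (0.416 to 0.618). Beyond the gene, 228302 bp past the start in the noncoding gene LINC01798, a region was lowered with every treatment. Its fold was 6.46 with DMSO, 4.53 with ATRA, 3.18 with Corin and 2.37 with the combination, with centred ratios of 0.522 (0.402 to 0.679), 0.582 (0.43 to 0.789) and 0.383 (0.276 to 0.533). It was the only named region lowered by all 3 treatments, and the pileup gave the same calls, though its peaks with Corin and the combination were weak, at a −log10 p of 13.6 and 7.33.

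PBX3 (ENSG00000167081, plus strand, chr9:125747345-125967377) had the strongest start of the 9, shared with the divergent transcript PBX3-DT at chr9:125745828-125747708. Its fold was 13.4 with DMSO, 13.3 with ATRA, 11.8 with Corin and 12.2 with the combination, and it moved with no treatment. A small region 769 bp past the start was called with ATRA (2.08), Corin (2.1) and the combination (2.22) and not with DMSO. It is the only start region of the 9 genes gained with any treatment, at pileups of 190, 214 and 263.

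In an intron of the neighbour MAPKAP1, 83991 bp before PBX3 at chr9:125663099-125663528, Corin had its largest centred ratio among the named regions. The fold was 6.59 with DMSO, 7.91 with ATRA, 14.3 with Corin and 10.9 with the combination, and the lists with Corin are the high ones. Centred ratios were 2.26 (1.77 to 2.9) for Corin and 1.61 (1.24 to 2.08) for the combination, against 0.874 (0.646 to 1.18) for ATRA. Pileups were 90, 79, 201 and 162. The 300 bases at its summit (chr9:125663204-125663503, hg38, plus strand) hold an AP-1 match, as the Corin-raised region of LMO2 does.
PBX3 upstream, raised with Corin: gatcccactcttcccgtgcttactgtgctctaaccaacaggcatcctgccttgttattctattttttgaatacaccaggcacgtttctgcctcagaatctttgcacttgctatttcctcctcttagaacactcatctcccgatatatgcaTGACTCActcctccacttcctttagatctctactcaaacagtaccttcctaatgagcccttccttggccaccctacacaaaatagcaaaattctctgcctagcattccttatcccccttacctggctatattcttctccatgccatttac
In these letters TGACTCA is the match to TGANTCA.

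Within PBX3, an exonic region 38240 bp past the start, at chr9:125785107-125785949, had folds of 8.55 with DMSO, 16.9 with ATRA, 5.73 with Corin and 4.89 with the combination. The combination lies below both DMSO and ATRA, at a centred ratio of 0.583 (0.435 to 0.782) over DMSO and a log2 of -1.38 over ATRA. An intronic region 157440 bp past the start had folds of 13.8, 21.9, 12.4 and 19.9 and pileups of 190, 511, 175 and 439, high in both lists with ATRA, though by fold neither centred ratio passed the limit. Near the end of the gene, 213885 bp past the start, a region was called with ATRA alone, at 8.2 from a pileup of 82.

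**Figure D5:**
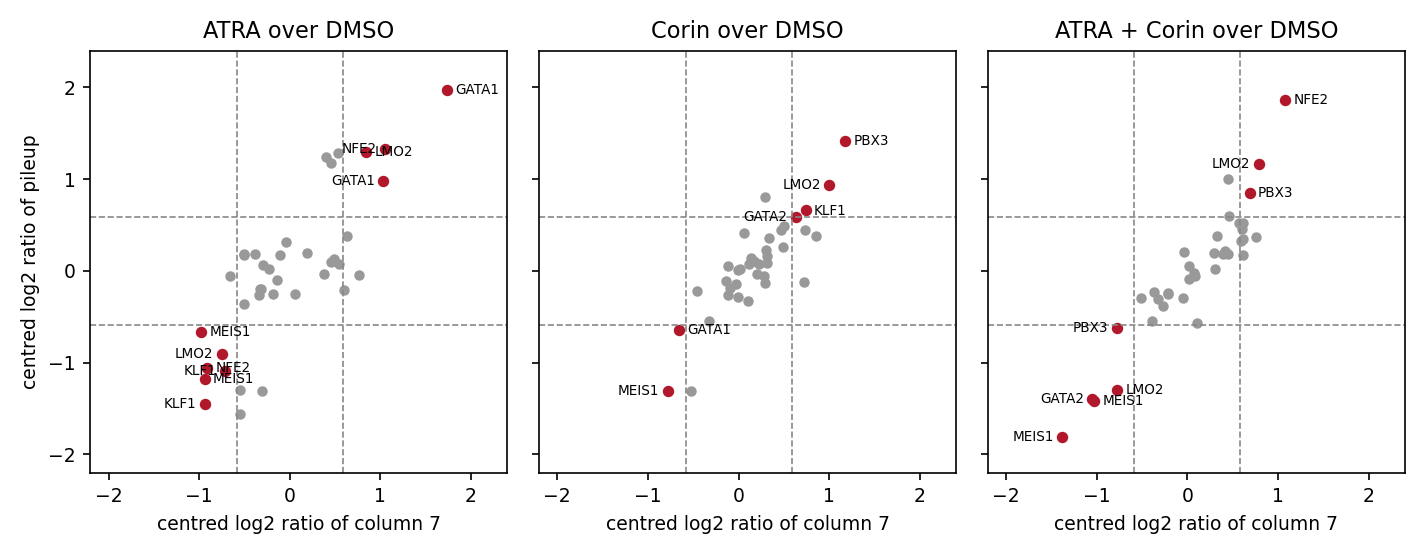
Centred log2 ratio of column 7 (horizontal axis) against that of the pileup (vertical axis) for the named regions called in both lists, each treatment over DMSO; dashed lines mark 1.5-fold, and red points, labelled with the gene whose window holds them, passed the limit on both axes in the same direction. Points past a vertical line and not red are calls made by the fold alone, such as the start of TAL1 with ATRA at 0.76 and -0.04.

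Across the named regions, 10 of 14 calls by fold for ATRA, 6 of 9 for Corin and 8 of 14 for the combination over DMSO were also made by the pileup in the same direction. For the combination over Corin 6 of 6 were, and for the combination over ATRA 8 of 15. Some of these regions were named for the size of their fold ratio, and the pileup was solved from fold and p. The 2 measures are therefore not independent. What Corin added to ATRA near the 9 genes was 21 regions of 177 without a counterpart with ATRA (11.9%, interval 7.89 to 17.5, all regions 15.4%), with 38 of 194 ATRA regions absent (19.6%, 14.6 to 25.7, all regions 28.7%). It raised 24 of 156 shared regions (15.4%, 10.6 to 21.9, all regions 9.3%) and lowered 14 (8.97%, 5.42 to 14.5, all regions 15.7%). Taken apart, the raised share was 15.7% outside promoters (9.61 to 24.7, all such regions 9.19%) and 14.9% at promoters (8.31 to 25.3, all promoters 9.59%). The lowered share was 12.4% outside promoters (7.04 to 20.8, all such regions 18.7%) and 4.48% at promoters (1.53 to 12.4, all promoters 7.7%). The absent share was 26.4% outside promoters (19.4 to 34.9, all such regions 32.6%) and 8.22% at promoters (3.82 to 16.8, all promoters 15.8%). Of these split shares, only the interval of the share raised outside promoters leaves out the matching share. In total, the intervals of the shares absent, raised and lowered leave out those of all regions. These shares were not recomputed by the pileup or under other settings.

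The combination was also set against Corin alone. Of 177 combination regions 20 were absent with Corin (11.3%, 7.43 to 16.8, all regions 20.4%), and 35 of 192 Corin regions were absent with the combination (18.2%, 13.4 to 24.3, all regions 25.1%). Outside promoters the first share was 15.0% (9.42 to 22.9, all such regions 23.7%) and the second 22.9% (16.2 to 31.2, all such regions 28.6%). At promoters they were 5.71% (2.24 to 13.8, all promoters 10.8%) and 10.8% (5.58 to 19.9, all promoters 14.6%). Of 157 shared regions 11 were raised (7.01%, 3.96 to 12.1, all regions 9.37%) and 8 lowered (5.1%, 2.6 to 9.73, all regions 9.12%). The NFE2 distal region and the LMO2 intron were among those raised, by log2 values of 0.93 and 0.91.

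AP-1 factors are dimers of FOS and JUN proteins, and their sequence was counted in the changed regions. Of the 16 regions near the 9 genes raised with Corin, 7 held TGANTCA (43.8%), against 3 of 20 raised with ATRA (15.0%) and 3 of 17 raised with the combination (17.6%). Over the whole genome the shares were 54.2%, 10.7% and 16.7% in the same order. Among regions lowered with ATRA it was in 5 of 16 (31.2%, all such regions 29.2%). The GATA sequence AGATAA, which GATA1 and GATA2 bind, was in 31 of all 275 regions (11.3%, all regions 13.1%). It was in 0 of the 16 raised with Corin (all such regions 14.4%), 1 of 20 raised with ATRA (5.0%, all such regions 2121 of 13246), 3 of 16 lowered with ATRA (18.8%, all such regions 13.8%) and 7 of 30 gained with ATRA (23.3%, all such regions 18.4%). Matches to TGATTGACA (PBX-MEIS), AAATCACTG (GFI1) and the direct repeat bound by retinoic acid receptors were in 0 of the 275 windows, and in 0.204%, 0.379% and 0.026% of all windows.

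Genes that work with these factors, or under them, are given from lists drawn up by function. Of 15 partners and related factors, such as LDB1, RUNX1 and GFI1B, all 15 starts were called with DMSO and ATRA and 14 with Corin and the combination. Within 100 kb of the partners ATRA raised 67 of 296 shared regions (22.6%, 18.2 to 27.7, all regions 15.6%) and Corin 10 of 274 (3.65%, 1.99 to 6.59, all regions 7.72%). Of 18 erythroid genes, 8 starts were called with DMSO, 6 with ATRA, 6 with Corin and 5 with the combination. Promoter regions of all genes were fewer with treatment too: 27107 with DMSO, 25741 with ATRA, 24875 with Corin and 23797 with the combination. The share of all gene starts called in each list was not computed, so these counts of starts have no background beside them. ALAS2, the first enzyme of haem synthesis in red cells, was called with ATRA alone, at 5.54, whereas KEL (2.1) and SLC4A1 (2.17) were called with DMSO alone and EPB42 with DMSO (1.93) and Corin (1.69). Of 9 stem and progenitor genes 7, 5, 6 and 7 starts were called, with CD34 at 17.0, 20.9, 10.8 and 13.3 and KIT at 10.1, 11.1, 12.1 and 12.6 with DMSO, ATRA, Corin and the combination.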

How the data were processed

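The assay was ATAC-seq on 8 samples, 2 per group. The submitters' processing notes name cutadapt, Bowtie2, SAMtools, Picard, MACS2 and build hg38, with no versions or settings, and the deposited files hold 1 peak list per group, so replicates had been combined by the authors. Column 7 as deposited is a fold, the pileup at the summit divided by the local one. Columns 8 and 9 are the authors' −log10 p and q values. Column 5 is the authors' score, which was not used. All peak ends lay within hg38. Samples were grouped by their titles, and 0 per-sample columns were left out.

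Overlapping peaks of the 4 lists were merged into union regions, and each region took the peak with the highest −log10 p. Ratios were centred within 20 classes of strength over all regions shared by 2 lists. The pileup was solved from fold and p, taking the fold as pileup plus 1 over background plus 1 and p as a Poisson probability. Shares carry 95% Wilson intervals. Promoters are within 1 kb of a GENCODE release 44 start, and promoter sequences are RefSeq's (GRCh38.p14), with entries for 7 of the genes. Windows of 300 bp at summits were searched for 11 motifs. Named regions are the start regions, the strongest region outside starts of each gene, and, per treatment, the 3 gained, lost, raised and lowered regions that rank highest (raised and lowered with a −log10 p of at least 20 in both lists), and 1 of each kind for the combination over each compound. The region next to the GATA2 one lost with Corin, and the genes named from the other lists, were chosen after their values were seen. The members and lists were chosen with earlier results of these data known. The steps were tested on simulated data. Python 3.11.15, numpy 2.4.6, scipy 1.17.1, pandas 2.3.3 and pysam 0.24.0 were used. The sequence of 1 named region and some marker genes are not reported here.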

Additional observations from a re-analysis of the deposited data

How the results depend on the processing

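Of 113 shares recomputed under other settings, 101 stayed within the interval of the reported share. These were the share called in all lists and the shares of each treatment over DMSO. Shares of the combination over ATRA or over Corin were not recomputed. A limit of 5 on −log10 q gave 61.0% of regions called in all lists, 14.0% lost with ATRA and 9.64% gained with Corin. Without any region within 500 bp, 10.7% were gained with ATRA. A window of 10 kb gave 2.13% lowered with Corin (all regions 8.64%). A single median for centring gave 6.33% raised with the combination, below the 8.27% of all regions under that setting. The reported share, 10.8%, lay above that of all regions, 9.14%. A 2-fold limit left 3.66% raised and 0.61% lowered with ATRA, 2.53% and 0.0% with Corin, and 0.633% and 2.53% with the combination. For the q limit, the 500 bp rule and the 2-fold limit, shares of all regions were not recomputed. Windows of 50 kb, lists of equal length, peaks within 150 bp merged, an overlap of 50%, quantile mapping, classes of GC content, the highest fold of a region and the pileup moved no share beyond its interval.

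Of 1518 ratios of named regions recomputed, 1378 stayed within their counting interval, 136 left it, and 4 that had passed the 1.5-fold limit changed sign. All 4, and 91 of those that left it, came with the pileup, a setting chosen after the data were seen. Ratios under the limit could change sign as well and are not counted among the 4, for example at the MEIS1 outermost start with ATRA, from -0.38 to 0.19. The 4 were TAL1 start with ATRA (-0.04), the KLF1 window region at chr19:12796281-12796970 with ATRA (-0.21), the MEIS1 region at 13004 bp with Corin (-0.12) and the one at 1609 bp for the combination over ATRA (-0.01). Leaving out a replicate was not possible with 1 list per group. No paired analysis was possible because each group has 1 list made from both replicates. The depth is unknown, and a weak region uncalled in 1 list may lie below its threshold there.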
